A study of Mus musculus with 8 samples.

Results

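The 10 genes described here store and handle lipid in macrophages: Plin2, Lpl, Fabp4, Fabp5, Pparg, Lipa, Soat1, Dgat1, Hilpda and Pnpla2. They were chosen by name as a functional group, with earlier results of these data known. Each was matched by its Ensembl identifier to 1 row of the count table through GENCODE M21, out of 49315 genes in the table. Bone marrow-derived macrophages (BMDMs), primary cells grown from C57BL/6 mouse marrow in macrophage colony-stimulating factor at 10 ng/ml, were transfected by lipofection with a gapmeR against the long noncoding RNA MAARS (4 libraries, replicates 9, 11, 13 and 15) or with a negative control gapmeR (4 libraries, replicates 2, 5, 6 and 7). A gapmeR is an antisense DNA oligonucleotide flanked by locked nucleic acids, and RNase H cuts the RNA it pairs with. The sample labels give 25 nM for both groups. No genetic change and no lipid loading is named in the labels, and every library was made from ribodepleted total RNA and sequenced as paired reads. The labels do not tie replicates to separate mice or cultures, so the p-values below measure the spread between these libraries, which may be technical. For the same reason a difference between the mice behind each group and the effect of the gapmeR cannot be told apart.

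A macrophage that takes up more lipoprotein lipid than it exports becomes a foam cell, the cell that fills an atherosclerotic lesion. Lipid enters as fatty acid released by lipoprotein lipase or as cholesteryl ester carried to the lysosome in modified lipoproteins. It is carried by fatty acid-binding proteins, esterified in the endoplasmic reticulum to triglyceride or cholesteryl ester, and kept in droplets coated by perilipins until a lipase frees it again. PPARγ, a nuclear receptor that binds fatty acids, is a known transcriptional regulator of many of these genes.

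The libraries held 19287279 to 20567123 counts in the control group and 20839671 to 24541205 in the MAARS gapmeR group. MAARS itself (Gm14461, chr2:78237547-78302230, GRCm38) was at 12.19, 15.08, 12.98 and 12.23 CPM (library-scaled counts, TMM-normalized) in the control libraries and at 7.71, 6.41, 7.31 and 5.85 in the MAARS gapmeR libraries, so the targeted gene was lower in every treated library (log2 fold change −0.95, SE 0.112, adjusted p = 5.8e-05, edgeR). Defining markers of macrophages were abundant, with a summed level of 13836 to 17118 CPM in the control and 17011 to 20241 CPM in the MAARS gapmeR libraries over 8 markers, of which 5 rose and 2 fell. Most of this sum was Lyz2, 1 of those that rose, with means of 9402 CPM in the control and 13170 CPM in the MAARS gapmeR group. The 2 that fell were Cd68, from 2162 to 1710 CPM, and Fcgr1, from 808 to 190 CPM. Adipocytes use many of the same lipid genes, but 4 of 7 adipocyte markers (Adipoq, Lep, Cidec and Pck1) had 0 counts in every library, which allows (at 3 counts, counting error only) up to 0.162 CPM each, and the other 3 summed to at most 0.256 CPM. For the other cell types the summed marker levels in control and MAARS gapmeR libraries were 460 to 1047 and 720 to 1237 CPM for stromal cells, 101 to 298 and 105 to 168 for neutrophils, 1.18 to 2.70 and 1.43 to 1.89 for dendritic cells, 41.7 to 53.4 and 28.3 to 35.7 for osteoclasts, 0.204 to 0.442 and 0 to 0.184 for B cells, 65.9 to 85.7 and 40.7 to 51.6 for T cells, and 46.5 to 78.5 and 75.2 to 138 for endothelial cells. The T cell sum was nearly all Cd4, with Cd3g at 0 counts in every library, and Calcr of the osteoclast list was also at 0 throughout. Most of the endothelial sum was Vwf, and the endothelial markers called went in opposite directions. Vwf rose from 45.2 to 92.4 CPM (log2 fold change 1.03, adjusted p = 0.00421, edgeR), while Kdr fell (−1.54, adjusted p = 4.2e-06, edgeR). Cdh5 was not called (adjusted p = 0.121, edgeR), and Tek was at most 0.159 CPM. The part of other cells in the results below was not tested, and in bulk RNA fewer cells of a type and less RNA per cell cannot be told apart.

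All 10 genes passed the filter on low counts, with 154 to 73044 counts per library, and together they held 0.764 to 0.889% of all counts. The test called 6 of the 10 (60%) at an adjusted p under 0.05, against 45.4% of the 13051 genes tested. As the 10 were chosen with earlier results known, these shares are a description and not an independent comparison. Of the 6 called, Plin2, Fabp4, Fabp5 and Hilpda were lower with MAARS knockdown (4 of 10, against 24.0% of all genes). Lpl and Dgat1 were higher (2 of 10, against 21.3%). With upper-quartile in place of TMM scaling the share of higher genes among all calls went from 47.0 to 60.4%, and the direction of none of these 6 genes changed. The CPM ranges of the groups did not overlap for the same 6 genes, against 42.1% of all genes. The changes were of small size. By edgeR, DESeq2 or limma-voom, 0 of the 10 passed an adjusted p under 0.05 together with a fold of 1.5, where 13.7% of all genes did by edgeR. By edgeR 6, the same genes as called, were at an unadjusted p under 0.05. At least the 45.4% of all genes called also pass that limit, and their full share was not counted. The median log2 fold change was −0.05 over the 10 genes and 0.01 over all genes tested, and the median size of change was 0.30 and 0.23. The genes called thus went in both directions.

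**Figure D1:**
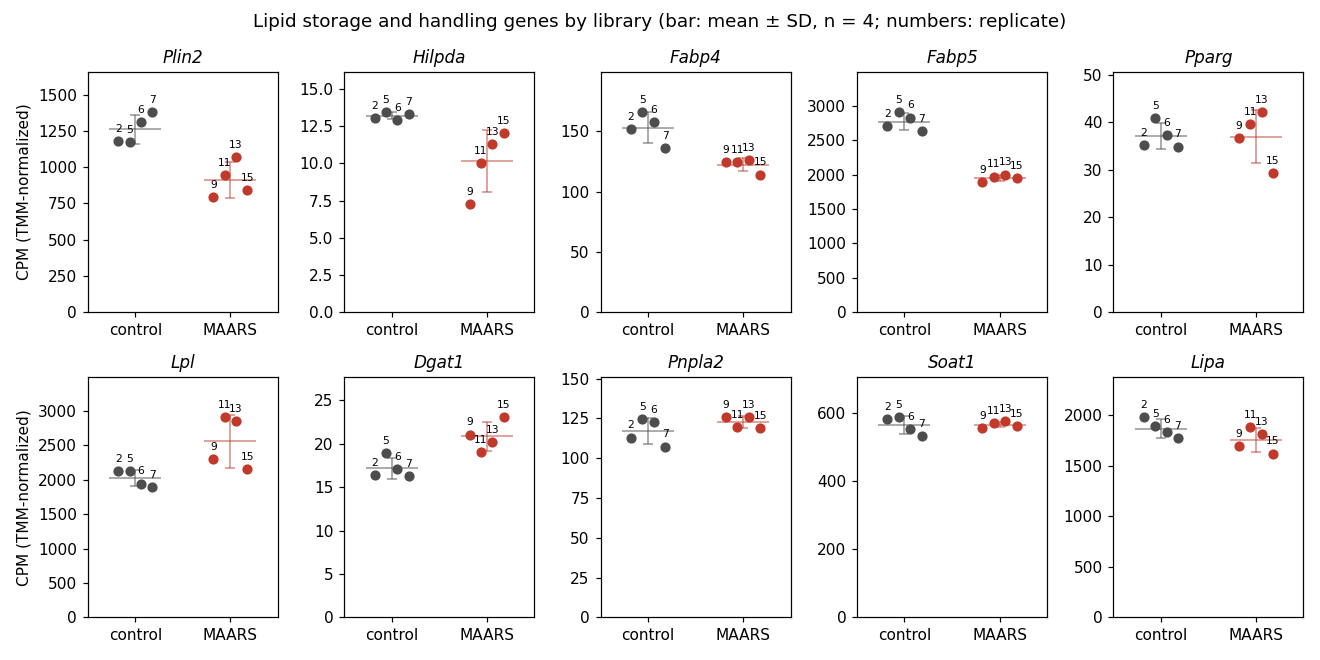
TMM-normalized CPM (vertical axes, from 0) of the 10 genes in each library, with control gapmeR in grey, MAARS gapmeR in red and the replicate number above each point; bars give the mean and SD of 4 libraries. Plin2, Hilpda, Fabp4, Fabp5, Lpl and Dgat1 show no overlap between groups, while Pparg, Pnpla2, Soat1 and Lipa overlap.

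Lpl encodes the lipase that frees fatty acids from lipoprotein triglyceride (chr8:68880491-68907448, plus strand). It was at 2121, 2125, 1943 and 1893 CPM in the control and at 2299, 2906, 2854 and 2156 CPM in the MAARS gapmeR libraries. Every treated library lay above every control library, although the lowest treated value, replicate 15, exceeded the highest control value by little. Lpl rose by 26.4% (log2 fold change 0.34, SE 0.0952, adjusted p = 0.0134, edgeR), with a 95% confidence interval of the fold from 1.09 to 1.46. The treated libraries were also more spread, with an SD of 382 against 120 CPM.

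The fatty acid-binding proteins carry fatty acids through the cytosol, and the adipocyte-type Fabp4 and the epidermal-type Fabp5 are the pair known from macrophages. Both genes lie on chromosome 3, Fabp4 at chr3:10204088-10208576 on the minus strand and Fabp5 at chr3:10012548-10016607 on the plus strand. Fabp5 was at 2703, 2910, 2828 and 2626 CPM in the control and at 1895, 1970, 1999 and 1949 CPM in the MAARS gapmeR libraries. The groups were far apart relative to their spread, and Fabp5 fell by 29.4% (log2 fold change −0.50, SE 0.0505, adjusted p = 1.9e-05, edgeR), the smallest p and the largest change of the 10 genes. Fabp4 was at 152, 166, 158 and 136 CPM in the control and at 124, 124, 127 and 114 CPM in the MAARS gapmeR libraries. It fell by 19.99% (log2 fold change −0.32, SE 0.0623, adjusted p = 0.00156, edgeR), again without overlap between the groups. The proportion of Fabp4 to Fabp5 was higher in every treated library, with a log2 ratio of −4.18 ± 0.06 in the control and −4.00 ± 0.07 in the MAARS gapmeR group (SD, n = 4). The pair can be told apart by sequence, since the longest stretch identical between their transcripts is 12 nt, but 9.01% of the 100-base stretches of Fabp5 also occur in the transcripts of processed pseudogenes. The pseudogene Gm6166 held 51 to 100 counts per library, far under the counts of Fabp5. It was also called lower (log2 fold change −0.59, adjusted p = 0.0195, edgeR). That call was lost without control replicate 5 (0.0560) or MAARS replicate 15 (0.0543, both edgeR). Counts of the other pseudogene, Gm14328, are not reported here. How reads shared between genes were counted is not known, so low pseudogene counts do not settle their part.

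Pparg, which encodes PPARγ (chr6:115360951-115490399, plus strand), was at 34.9 to 41.0 CPM in the control and at 29.3 to 42.2 CPM in the MAARS gapmeR libraries. The means of 37.1 ± 2.78 and 37.0 ± 5.58 CPM (SD, n = 4) were nearly equal, and the treated range enclosed the control range. The test did not call it (log2 fold change −0.01, SE 0.101, adjusted p = 0.962, edgeR), with a fold between 0.854 and 1.16 inside the 95% interval.

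Dgat1 catalyses the last step of triglyceride synthesis (chr15:76502015-76511953, minus strand). Its level was 16.44, 18.90, 17.04 and 16.30 CPM in the control and 21.05, 19.06, 20.17 and 23.06 CPM in the MAARS gapmeR libraries. The lowest treated library, replicate 11, lay just above the highest control library, replicate 5. Dgat1 rose by 21.3% (log2 fold change 0.28, SE 0.0791, adjusted p = 0.0139, 95% confidence interval of the fold 1.08 to 1.37, edgeR).

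Cholesterol is esterified by the product of Soat1 (chr1:156424525-156474331, minus strand), and the ester delivered to lysosomes is cleaved by lysosomal acid lipase, the product of Lipa (chr19:34492318-34527474, minus strand). Soat1 was at 533 to 588 CPM in the control and at 558 to 577 CPM in the MAARS gapmeR libraries. Neither its mean (565 ± 25.9 and 567 ± 8.68 CPM) nor its range separated the groups, and the 95% interval of the fold was 0.936 to 1.08 (adjusted p = 0.932, edgeR). Lipa was at 1767 to 1977 CPM in the control and at 1617 to 1877 CPM in the MAARS gapmeR libraries. Its log2 fold change of −0.09 (SE 0.0601, adjusted p = 0.228, edgeR) did not pass, with a fold between 0.856 and 1.03 inside the interval. The log2 ratio of Soat1 to Lipa, −1.72 in the control and −1.62 in the MAARS gapmeR group, overlapped between the groups.

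Plin2 encodes the perilipin that coats macrophage lipid droplets and accumulates with them (chr4:86648386-86670060, minus strand). It was at 1181, 1172, 1309 and 1381 CPM in the control and at 791, 943, 1071 and 844 CPM in the MAARS gapmeR libraries. All treated libraries lay below all control libraries, with replicate 13 nearest to them. Plin2 fell by 27.6% (log2 fold change −0.47, SE 0.0913, adjusted p = 0.00167, 95% confidence interval of the fold 0.630 to 0.831, edgeR).

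Hilpda encodes a small droplet protein induced by hypoxia and by fatty acids that inhibits adipose triglyceride lipase (chr6:29272488-29275446, plus strand). It was at 13.06, 13.45, 12.93 and 13.31 CPM in the control and at 7.28, 9.99, 11.30 and 12.05 CPM in the MAARS gapmeR libraries. The control libraries were almost equal (coefficient of variation 1.80%), while the treated ones spread widely (20.6%) and replicate 15 came close to the control values. Hilpda fell by 22.9% (log2 fold change −0.37, SE 0.131, adjusted p = 0.0365, 95% confidence interval of the fold 0.632 to 0.942, edgeR). This call was lost without control replicate 2, 5, 6 or 7 (adjusted p = 0.0601, 0.0672, 0.0590 and 0.0670), without MAARS replicate 11 (0.0757), with upper-quartile factors (0.0765) and with no factors (0.0803, all edgeR).

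Pnpla2 encodes adipose triglyceride lipase, the enzyme that starts droplet breakdown (chr7:141455198-141460743, plus strand). It was at 107 to 125 CPM in the control and at 119 to 126 CPM in the MAARS gapmeR libraries, and these ranges overlapped. The test did not call it (log2 fold change 0.07, SE 0.0544, adjusted p = 0.344, 95% confidence interval of the fold 0.964 to 1.14, edgeR), whereas without scaling factors its adjusted p was 0.0343. Set against Pnpla2 within each library, Plin2 went from a log2 ratio of 3.43 to 2.89, Hilpda from −3.15 to −3.62 and Dgat1 from −2.77 to −2.56. None of these 3 ratios overlapped between the groups. Plin2, Hilpda and Dgat1 did not overlap by themselves either, and nor did 42.1% of all genes tested. Per CPM of Pnpla2 there were 10.8 CPM of Plin2 in the control and 7.40 in the MAARS gapmeR group.

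**Figure D2:**
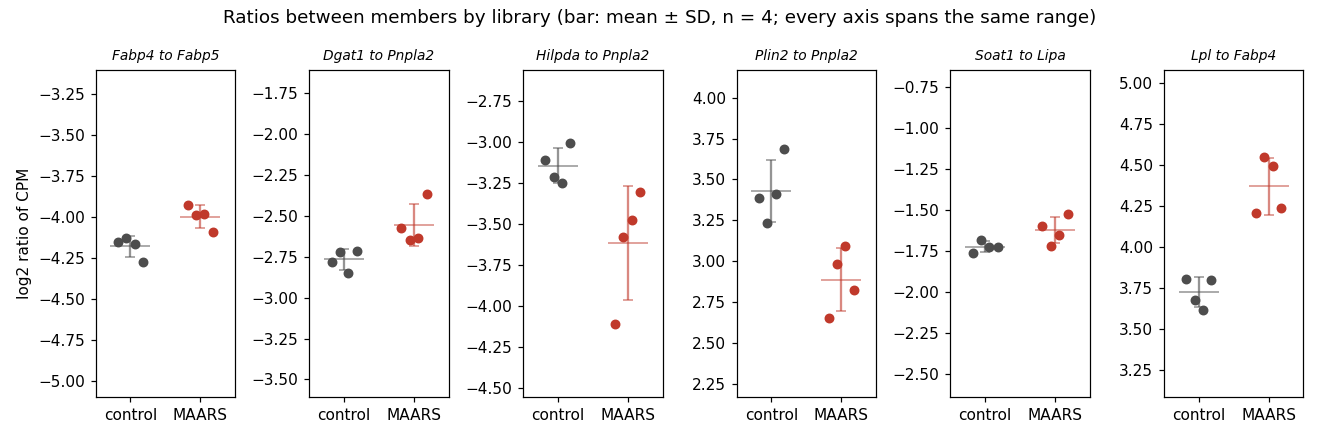
Log2 ratios of CPM between pairs of the genes (vertical axes, each spanning the same number of log2 units) in control gapmeR (grey) and MAARS gapmeR (red) libraries, with bars for the mean and SD of 4 libraries. The ratios of Plin2 and of Hilpda to Pnpla2 lie lower in the MAARS gapmeR group, those of Fabp4 to Fabp5, Dgat1 to Pnpla2 and Lpl to Fabp4 lie higher, and Soat1 to Lipa overlaps.

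The widest shift among these ratios joined the lipase to the carrier, since Lpl rose and Fabp4 fell. The log2 ratio of Lpl to Fabp4 was 3.73 in the control and 4.37 in the MAARS gapmeR group, or 13.2 and 20.7 CPM of Lpl per CPM of Fabp4. The ratios rest on the same counts as the tests of single genes, join genes chosen with earlier results known, and are given as a description. How often ratios of other gene pairs separate the groups was not counted.

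The promoters of the droplet genes are shown because Plin2 and Hilpda fell while Pnpla2, whose product acts on the same droplets, was not called. The bases are the 250 upstream of a RefSeq start site on GRCm38.p6, printed 5′ to 3′ on the strand of the gene, with capitals for matches to the motifs searched. RefSeq windows matched 6 of the 10 genes. Lpl, Fabp4, Fabp5 and Dgat1, all called, had no window, so of the genes called only Plin2 and Hilpda could be searched. The 3 sequences are for Plin2 at chr4:86670060-86670309 (minus strand), the first start of Hilpda at chr6:29272238-29272487 (plus strand) and Pnpla2 at chr7:141454938-141455187 (plus strand).
Plin2: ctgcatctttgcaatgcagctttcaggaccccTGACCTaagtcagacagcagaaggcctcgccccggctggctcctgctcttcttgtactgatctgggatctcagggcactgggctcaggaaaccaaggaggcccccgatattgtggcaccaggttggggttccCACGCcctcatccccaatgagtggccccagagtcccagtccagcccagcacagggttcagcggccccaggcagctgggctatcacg
Hilpda: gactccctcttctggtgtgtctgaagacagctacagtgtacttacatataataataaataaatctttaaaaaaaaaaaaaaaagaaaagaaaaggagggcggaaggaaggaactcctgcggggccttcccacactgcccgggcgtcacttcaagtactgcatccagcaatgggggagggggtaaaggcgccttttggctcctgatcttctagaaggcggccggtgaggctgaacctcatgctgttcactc
Pnpla2: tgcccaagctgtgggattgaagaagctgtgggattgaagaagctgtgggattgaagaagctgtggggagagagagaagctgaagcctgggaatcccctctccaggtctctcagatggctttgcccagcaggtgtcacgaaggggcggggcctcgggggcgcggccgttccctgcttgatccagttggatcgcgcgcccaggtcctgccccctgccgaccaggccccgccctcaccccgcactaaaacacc
The motifs were searched on both strands: ACGTG and GCGTG, the cores of hypoxia response elements, CACGTG, which contains the first of them, the nuclear receptor element AGGTCA, its direct repeat with 1 base between, the interferon element core GAAANNGAA and TATAAA. In the window of Plin2 the capitals mark GCGTG, read on the opposite strand at 86 to 82 bases before the start, and AGGTCA, also on the opposite strand at 218 to 213 bases before it. Of all 32817 promoter windows, 28.1% hold GCGTG and 14.0% hold AGGTCA, so both are common. The windows of Pnpla2 and of the first Hilpda start hold none of the motifs. The window of a second Hilpda start holds ACGTG at 43 to 39 bases and GCGTG at 111 to 107 and 8 to 4 bases before that start, where ACGTG occurs in 16.6% of all windows. Of the genes not called, Soat1 also holds GCGTG, at 66 to 62 bases before its start, and Pparg holds both motifs marked in Plin2, with GCGTG at 242 to 238 and 8 to 4 bases and AGGTCA at 28 to 23 bases before its first start and AGGTCA at 9 to 4 bases before another. The direct repeat, in 0.0335% of all windows, occurs in none of the 9 windows of the 6 genes, nor does CACGTG (6.02%) or GAAANNGAA (7.12%), while TATAAA (12.4%) matches in those of Lipa and Pparg. A match is a description of letters and not of binding.

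**Figure D3:**
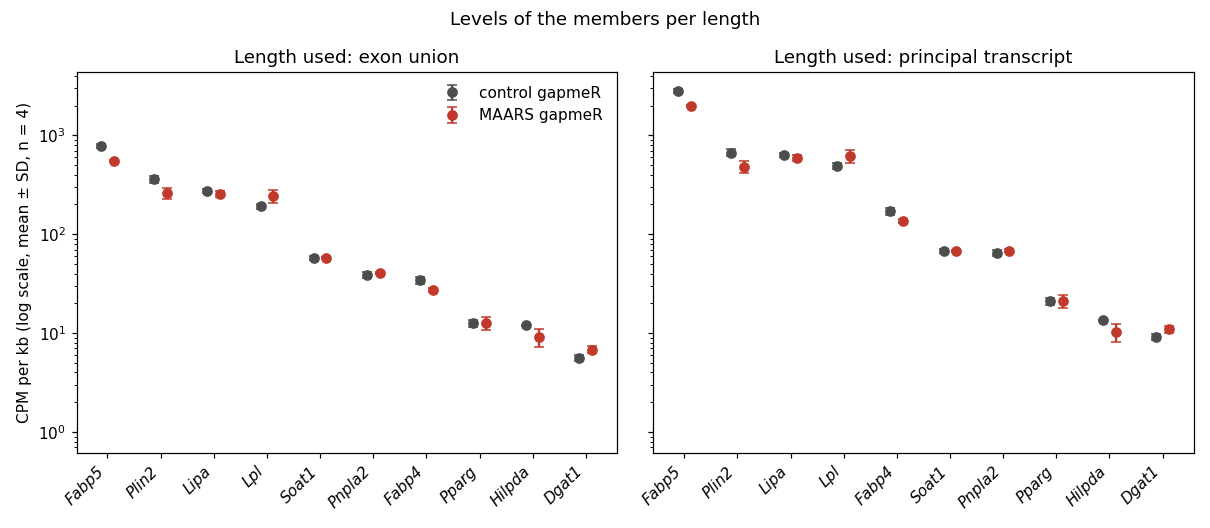
Level per length of each gene in CPM per kb (vertical axis, log scale; mean and SD of 4 libraries) in control gapmeR (grey) and MAARS gapmeR (red) libraries, divided by the merged exons (left) or by the principal transcript (right). Fabp5 is highest with either of these lengths, and Fabp4 moves from the 7th to the 5th place in the control group with the shorter length.

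Levels of different genes were compared per length. Divided by the length of all merged exons, Fabp5 was highest in the control group at 776 CPM per kb, followed by Plin2 at 359, Lipa at 275 and Lpl at 193, with no overlap between neighbours. Soat1 followed at 57.7 CPM per kb. Pnpla2 at 38.7 and Fabp4 at 34.1 overlapped, as did Pparg at 12.6 and Hilpda at 11.95, and Dgat1 was lowest at 5.62. In the MAARS gapmeR group Fabp5 stayed highest at 548 CPM per kb, but Plin2 at 260, Lipa at 258 and Lpl at 244 overlapped with this length. At the low end Pparg at 12.5, Hilpda at 9.21 and Dgat1 at 6.82 each overlapped the next. The merged exons of the binding proteins, 3567 nt for Fabp5 and 4489 nt for Fabp4, are far longer than their principal transcripts. With the principal transcript, 987 nt for Fabp5 and 896 nt for Fabp4, Fabp5 was at 2803 and Fabp4 at 171 CPM per kb in the control group, the latter above Soat1 at 67.5 and Pnpla2 at 65.0. With the longest transcript, Lpl at 621 and Fabp5 at 603 CPM per kb overlapped at the top of the MAARS gapmeR group, so the first place of Fabp5 there depends on the length used. In the control group Plin2 at 668 and Lipa at 628 CPM per kb overlapped with the principal transcript. Lpl at 491 and Lipa at 479 CPM per kb overlapped in that group with the longest transcript. Whether Plin2, Lipa and Lpl overlapped in the control group thus also depends on the length used.

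The order of the libraries within each group was similar for many of the genes. It is given as counts with no test. How many of all genes follow the same order was not counted, so it may not be particular to these genes. Control replicate 5 was the highest control library for 8 of the 10 genes, all but Plin2 and Lipa, and control replicate 7 was the lowest for 8, all but Plin2 and Hilpda. Replicate 5 had the lowest and replicate 7 the highest summed level of stromal and of neutrophil markers among the control libraries, and the part of these in the spread was not tested. In the MAARS gapmeR group replicates 11 and 13 were the highest pair for 6 genes, namely Plin2, Lpl, Fabp5, Pparg, Lipa and Soat1. Replicate 13, the highest treated library for 5 of the 10 genes, had the highest stromal and neutrophil sums of its group. This is the opposite of the control group, where replicate 7 had the highest sums and was lowest for 8 genes. The part of these sums was not tested here either.

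**Figure D4:**
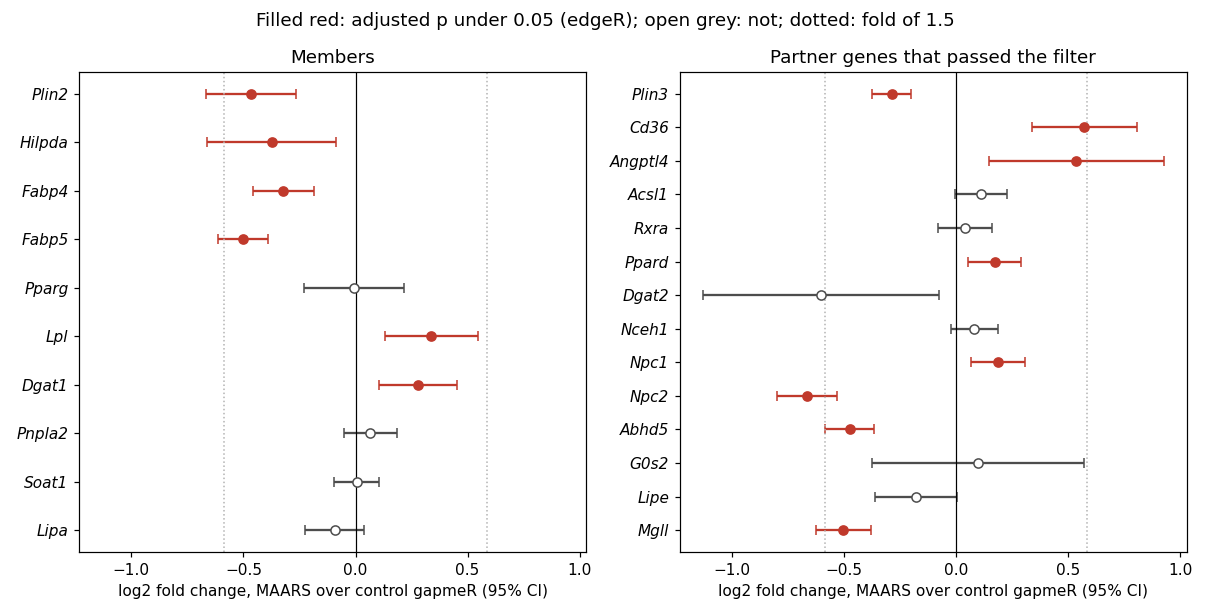
Log2 fold change of MAARS over control gapmeR (horizontal axis) with its 95% confidence interval for the 10 genes (left) and for 14 partner genes that passed the filter (right); filled red points have an adjusted p under 0.05 by edgeR and dotted lines mark a fold of 1.5. The intervals of Pparg, Pnpla2, Soat1 and Lipa include 0, and the points of Npc2, Dgat2, Cd36, Angptl4 and Mgll, from −0.66 for Npc2 to 0.57 for Cd36, lie farther from 0 than that of Fabp5 (−0.50), the farthest member.

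Partner genes were taken from 8 lists of the same pathways, 107 genes in all, of which 84 passed the filter. The test called 41 of them (48.8%, against 45.4% of all genes tested), 22 higher and 19 lower, a share near the background. Their median log2 fold change was 0.06.

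In the list of lipase control and fatty acid uptake, 6 of 15 genes tested rose and 4 fell (median log2 fold change 0.07). Cd36, the scavenger receptor that takes up fatty acids and oxidized lipoproteins, rose from 1450 ± 219 to 2156 ± 244 CPM (log2 fold change 0.57, adjusted p = 0.00121, edgeR). Angptl4, an inhibitor of lipoprotein lipase, rose from 4.78 to 6.95 CPM (0.54, adjusted p = 0.0285, edgeR). That call was lost without control replicate 2 or 5 or MAARS replicate 9, 11 or 13 (adjusted p from 0.0517 to 0.0873, edgeR). Fabp3, the heart-type binding protein, fell from 10.2 ± 1.29 to 2.98 ± 0.655 CPM (−1.76, adjusted p = 1.1e-05, edgeR), so all 3 binding proteins named here were lower. However, 19.6% of the exon length of Fabp3 overlaps other genes on the opposite strand (Gm10570 and Zcchc17), and no source used here names the strand setting of the counts. Acsl1, which activates fatty acids, was at 46.4 and 50.05 CPM and was not called (adjusted p = 0.113, but 0.0166 with upper-quartile and 0.0136 with no factors, edgeR). Gpihbp1, the anchor of lipoprotein lipase on capillary endothelium, had 0 counts in every library.

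Among the nuclear receptors and their partners, 2 of 11 rose and 2 fell (median 0.05). Rxrb, a dimer partner of PPARγ, rose from 36.9 to 54.6 CPM (log2 fold change 0.56, adjusted p = 4.3e-05, edgeR), whereas its relative Rxra was at 138 and 142 CPM and was not called (adjusted p = 0.587, edgeR). Ppard, the receptor PPARδ, rose from 40.4 to 45.5 CPM (0.17, adjusted p = 0.0246, edgeR). That call was lost without control replicate 2, 5 or 7 or MAARS replicate 9 or 15 (adjusted p from 0.0501 to 0.0775, edgeR) and with no filter (0.0657). Cebpb, a transcription factor of fat cell and macrophage differentiation, fell from 69.8 to 54.0 CPM (−0.37), with 20.7% of its exons overlapped on the opposite strand.

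In glycerolipid synthesis 2 of 12 rose and 2 fell (median −0.07). Lpin1 and Lpin2, phosphatidate phosphatases that make the diacylglycerol used by Dgat1, both rose, Lpin1 from 36.6 ± 2.77 to 64.0 ± 5.58 CPM (log2 fold change 0.81, adjusted p = 1.1e-05, edgeR) and Lpin2 from 95.6 to 118 CPM (0.30). Gk, glycerol kinase, fell from 28.9 to 22.4 CPM (−0.37). Dgat2, the other acyltransferase for the last step, was low at 2.65 and 1.75 CPM, and its log2 fold change of −0.60 did not pass (adjusted p = 0.0599, edgeR), whereas it passed without MAARS replicate 15 (0.0210), with no filter (0.0475) and by limma-voom (0.0450).

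In the cholesteryl ester list 1 of 8 rose and 4 fell (median −0.09). Stard3, which moves cholesterol between late endosomes and the endoplasmic reticulum, fell from 125 ± 12.4 to 65.8 ± 4.34 CPM (log2 fold change −0.92, adjusted p = 6.3e-06, edgeR). Npc2, the soluble lysosomal cholesterol carrier, fell from 2816 ± 155 to 1777 ± 113 CPM (−0.66, adjusted p = 1.2e-05, edgeR), while Npc1, the membrane protein it hands cholesterol to, rose from 422 to 480 CPM (0.19, adjusted p = 0.0164, and 0.0529 without MAARS replicate 11, edgeR). Soat2, the second cholesterol acyltransferase, fell from 7.27 to 4.98 CPM (−0.54), unlike Soat1 above. Nceh1, a hydrolase of cholesteryl ester, was at 726 and 768 CPM and was not called (adjusted p = 0.183, but 0.0235 with upper-quartile and 0.0195 with no factors, edgeR).

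In neutral lipolysis 1 of 8 rose and 2 fell (median 0.09). Abhd5, the coactivator of adipose triglyceride lipase, fell from 64.6 ± 3.04 to 46.5 ± 1.45 CPM (log2 fold change −0.48, adjusted p = 2.4e-05, edgeR), with 16.0% of its exons overlapped on the opposite strand. Its counterpart G0s2, an inhibitor of the same lipase, was at 3.56 and 3.80 CPM and was not called (adjusted p = 0.739, edgeR). Of the lipases for the next steps, Mgll, the monoacylglycerol lipase, fell from 39.1 to 27.6 CPM (−0.50, adjusted p = 3.9e-05, edgeR), and Lipe, hormone-sensitive lipase, was at 17.3 and 15.3 CPM and was not called (adjusted p = 0.104, and 0.0212 without control replicate 2, edgeR), with 15.6% of its exons overlapped on the opposite strand. Ddhd2, a triglyceride hydrolase, rose from 55.3 to 63.8 CPM (0.21).

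Of the droplet coat and assembly genes only 7 of 15 passed the filter, of which 1 rose and 3 fell (median −0.22). Plin3, the perilipin found on nascent droplets, fell from 163 ± 3.66 to 134 ± 2.95 CPM (log2 fold change −0.29, adjusted p = 0.000165, edgeR), the same direction as Plin2. Aup1, a droplet membrane protein, fell from 185 to 136 CPM (−0.45), with 23.0% of its exons overlapped on the opposite strand by Htra2, and Hsd17b11, a droplet dehydrogenase, rose from 152 to 180 CPM (0.24).

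Fatty acid oxidation genes, the route by which freed fatty acid is burned, had 5 of 13 higher and 1 lower (median 0.12). The mitochondrial enzymes Acadm (log2 fold change 0.37) and Acaa2 (0.28) were among those that rose. Of the hypoxia-inducible genes, a group to which Hilpda belongs, 4 of 10 rose and 1 fell (median 0.28). Vegfa, the endothelial growth factor, rose from 34.6 to 52.1 CPM (0.59) and Egln1, an oxygen-sensing hydroxylase, from 36.0 to 46.2 CPM (0.36), whereas Pfkfb3, a regulator of glycolysis, fell from 138 to 80.6 CPM (−0.77, adjusted p = 0.000256, edgeR) as Hilpda did.

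**Figure D5:**
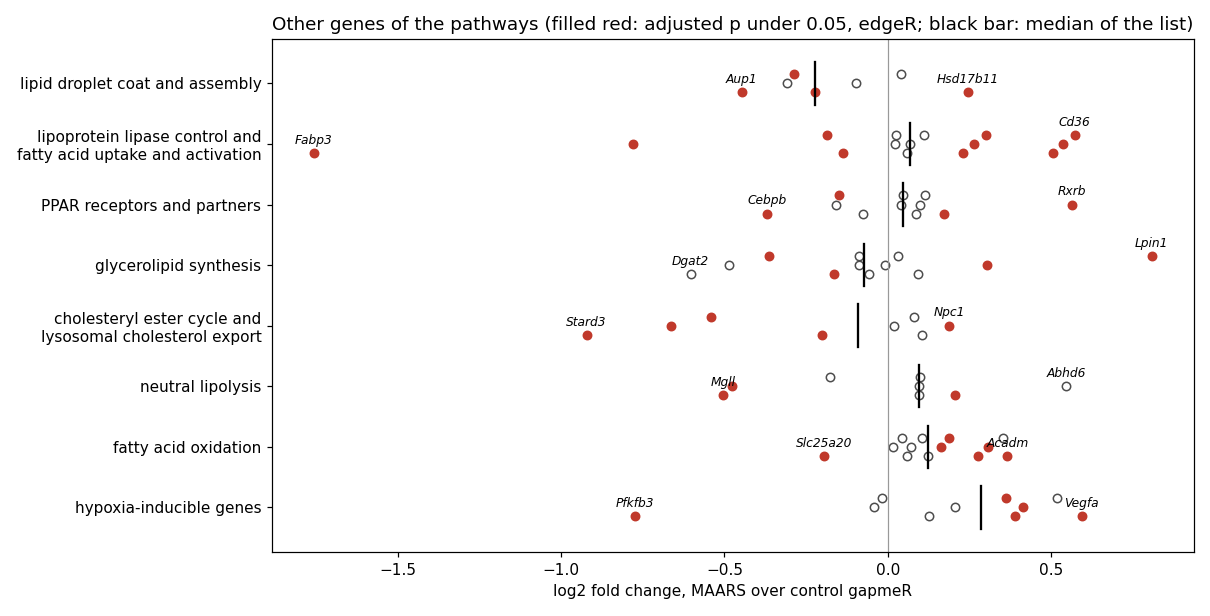
Log2 fold change of MAARS over control gapmeR (horizontal axis) of the 84 pathway genes tested, 1 row per list; filled red points have an adjusted p under 0.05 by edgeR, open points do not, and black bars are the medians of the lists. Changes run in both directions in every list, from −1.76 for Fabp3 to 0.81 for Lpin1.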

How the data were processed

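RNA-Seq of 8 BMDM libraries was used. The authors trimmed the reads with Trimmomatic 0.36, aligned them with STAR 2.5.2b to GRCm38 and counted reads per gene with featureCounts (Subread 1.5.2); the deposited values are raw counts, not normalized. The strand setting and the handling of reads that map to several places are not given in the sources used here. Samples were grouped by their labels.

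Counts were analysed with R 4.3.3 and edgeR 4.0.16: filterByExpr (minimum count 10, minimum total count 15), TMM factors, glmQLFit and glmQLFTest, p-values being adjusted by Benjamini-Hochberg over 13051 genes. The SE is the log2 fold change divided by the root of F. CPM values were TMM-normalized. Gene models were those of GENCODE M21 (99.5% of genes found), promoters from RefSeq. Depth was 19287279 to 24541205 counts per library. Replicates of a group differed by a chi-square of 4.24 to 15.1 per gene, more than sampling noise, so the spread between libraries is what the tests use. The procedure was tested on simulated data.

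The members and lists were chosen with earlier results of these data known. Genes named are the 10 members, MAARS, 15 partners and, in each list, the 3 with the lowest p; some of these are not reported here. Alternatives were RLE, upper-quartile and no factors, DESeq2 1.42.0, limma-voom 3.58.1, 1 surrogate variable (sva 3.50.0), a robust prior, a filter at a mean of 10 counts or none, other thresholds, and each library left out. The principal transcript length was added after the levels had been seen. No protein sequences were used here.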

Additional observations from a re-analysis of the deposited data

Results flagged for a closer look

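Of 79 group values screened for a single library standing far from the other 3, chance flags about 1 in 20, and 1 was flagged. The summed B cell markers reached 0.442 CPM in control replicate 7, while the other control libraries lay between 0.204 and 0.216 CPM. The gap of replicate 7 took up 0.947 of the range of the group. Its sum rested on only 4 counts of Cd79a, 4 of Ms4a1 and 1 of Pax5, so the gap is one of a few reads. None of the 10 lipid genes and none of the other marker sums was flagged. Replicate 7 was also the control library with the lowest level of 8 of the lipid genes, Hilpda not among them. Leaving it out changed the call of Hilpda (adjusted p = 0.0670, edgeR) and of no other member. The Hilpda call was lost in the same way without control replicate 2, 5 or 6, so this is not particular to replicate 7.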

How the results depend on the processing

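Plin2, Lpl, Fabp4, Fabp5 and Dgat1 kept their direction and call in all 17 alternatives, with an adjusted p of at most 0.0430. For the 6 members called, 95 of 102 values kept direction and call, and the 7 that did not were all Hilpda. Requiring a fold of 1.5 took the members called from 6 to 0 and the pathway genes from 41 to 7. All genes called went from 5919 to 1782. An adjusted p under 0.01 took the members to 3 of 10, the pathway genes to 25 and all genes to 3954 of 13051. Both limits are stricter by construction, and under the second the share of members called was near that of all genes. The log2 fold change of Pparg, near 0 and not called, turned sign with RLE factors (0.000103), upper-quartile factors (0.0558), no factors (0.0578) and DESeq2 (0.000116), and ranged from −0.0781 to 0.0905 when a library was left out. Under the same leaving out, Soat1 ranged from −0.0223 to 0.0263, Rxra from −0.0074 to 0.0797 and G0s2 from −0.104 to 0.235. Leaving out 1 library gave 5097 to 5621 called genes. The cause of these changes was not tested. No paired analysis was possible because the groups share no replicate numbers. Depth limits genes of few counts, such as Angptl4, G0s2 and Dgat2, while replicates of a group differed by more than counting error.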

Other observations

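A pseudogene related to Plin2 changed far more than Plin2 did. Gm12551 (chr4:86627075-86631251, minus strand, GRCm38) lies 17134 bases from Plin2 and shares 0.224% of the 100-base stretches of the Plin2 transcript. It had 32, 43, 69 and 78 counts in the control libraries and 3, 2, 1 and 3 counts in the MAARS gapmeR libraries. Its share of all counts in the MAARS gapmeR group was 3.63% of that in the control group (95% exact interval 1.64 to 7.01%, counting error only), with an adjusted p of 1.1e-05 by edgeR and a call in all 17 alternatives. It was singled out after its values had been seen, when genes sharing sequence with the 10 members were listed. The labels name no mice for the libraries, so a difference between the animals of the groups and the knockdown cannot be told apart, for this gene or for the lipid genes.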
